A study of Drosophila melanogaster with 12 samples.

Results

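The genes described here are the Cullin-3 ubiquitin ligase and caspase genes of sperm individualization: Cul3, klhl10, Roc1b, gudu, Bruce, Dronc, Drice, Dark, cyt-c-d and Dcp-1. They were found on the array as every probe set whose only gene symbol was one of these 10 names. That gave 10 of the 18769 Drosophila probe sets on the array, covering 8 of the 10 genes. Cul3 and Dark had 2 probe sets each, klhl10, Roc1b, gudu, Bruce, Dronc and Dcp-1 had 1 each, and Drice and cyt-c-d had none under their symbols and were not analysed here.

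In Drosophila, the descendants of one spermatogonium differentiate inside a shared cytoplasm, and individualization then wraps each spermatid in its own membrane and strips away the bulk cytoplasm. Caspases, the proteases otherwise known for cell death, act in this remodelling without killing the cell. A ubiquitin ligase built on a testis form of Cullin-3, with the RING protein Roc1b and the BTB-Kelch adaptor Klhl10, permits their activation by acting on the caspase inhibitor Bruce. The apoptosome adaptor Dark, the initiator caspase Dronc, the effector caspases Drice and Dcp-1 and a testis cytochrome c (cyt-c-d) belong to the caspase arm, and gudu encodes an Armadillo repeat protein also needed for individualization. Spermatocytes transcribe many genes that are used only in the spermatids they become.

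Testis RNA from 4 genotypes was hybridised to Affymetrix Drosophila 2.0 arrays, 3 arrays each: Med22RNAi, aly, sa and wild type. Med22RNAi testes carried bam-gal4, a germ cell driver active in late spermatogonia and spermatocytes, with a UAS hairpin against the Mediator subunit Med22 and, per the methods of the study, UAS-Dicer2. The aly testes were aly2/aly5P, which lack a subunit of the testis meiotic arrest complex tMAC, and the sa testes were sa1/sa2, which lack a testis-specific TAF. The flies labelled y,w served as wild type, and the methods of the study name a red,e data set in that place. Flies of all 4 groups were adults 1 day old, grown at 25 °C, and their testes were taken with seminal vesicles and accessory glands dissected away and about 250 ng of total RNA labelled per array. All 3 altered genotypes are meiotic arrest genotypes, in which spermatocytes do not go on to make spermatids. None of the arrays carried the driver without the hairpin, and only the Med22RNAi arrays were newly made, so knockdown and array set cannot be told apart. For the other 9 arrays nothing states that replicates came from separate animals, so p-values measure the spread between arrays, which may be technical.

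Levels are log2 GCRMA signals. A probe set was called when the limma fit over all 18769 probe sets gave an adjusted p under 0.05 (Benjamini-Hochberg) and a change of at least 4-fold, and "rose" and "fell" are used only of called changes. Between 45.8% and 49.6% of probe sets lay under a log2 level of 3 on each array. Where every array of a genotype lay under 3, the fold is given as a lower bound with that genotype set at 3. Because whole testes were used, fewer cells of a type and less RNA per cell cannot be told apart in any comparison below.

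Replicate arrays of one genotype correlated at 0.983 to 0.997. A pair of arrays stood apart from their replicates. Wild type replicate 1 had 1.73% of probe sets at least 4-fold from the mean of the other wild type arrays, against 0.884% and 0.81% for wild type replicates 2 and 3, and sa replicate 2 had 0.863%, against 0.085% and 0.389% for sa replicates 1 and 3. The sa gene itself averaged 5.85 in sa and 10.84 in wild type, the aly probe set averaged 7.45 in aly and 6.56 in wild type and so does not check that label, and Med22 was not analysed here. Summed signal of markers of spermatids and late spermatocytes (4 of 4 measured: dj, Mst87F, betaTub85D and ProtB) lay at log2 14.94 to 15.47 on the Med22RNAi arrays, 13.94 to 14.04 on the aly arrays and 14.41 to 14.66 on the sa arrays, against 16.14 to 16.31 on the wild type arrays. Single markers differed from wild type by -0.56 (betaTub85D) to -2.42 (ProtB) in Med22RNAi and -1.56 (betaTub85D) to -8.93 (ProtB) in aly. In sa they ran from -1.23 (Mst87F) to -5.59 (ProtB). Summed germ line marker signal (bam, aly, can and Rbp4, with vas under 3 on every array) was 13.57 to 13.66 for Med22RNAi, 14.61 to 14.73 for aly and 13.68 to 13.98 for sa, against 11.21 to 11.62 for wild type. That sum is set largely by Rbp4, at 13.38 to 13.48 in Med22RNAi. Rbp4 and bam rose in every arrest. The marker can rose only in aly, by 2.02, with differences of -0.04 in Med22RNAi and 0.89 in sa, and the aly gene was not called in any arrest. Hemocyte markers (3 of 3 measured) summed to 10.41 to 10.76 for Med22RNAi, 8.87 to 9.33 for aly and 8.82 to 8.99 for sa, against 6.99 to 7.71 for wild type. The largest part of that sum was crq, which like Pxn averaged highest in Med22RNAi. Hml was instead highest in aly, at 6.10 to 6.80, with 4.54 to 5.19 in Med22RNAi, 3.86 to 4.46 in sa and 3.38 to 3.46 in wild type. Of the hub and cyst cell markers (4 of 5 measured), upd1 and tj were under 3 on every array. The cyst cell marker zfh1 read 6.28 to 6.70 for Med22RNAi, 2.20 to 2.52 for aly and 2.20 to 2.97 for sa, against 2.25 to 2.82 in wild type, and was called higher in Med22RNAi than in each of the others. The marker eya read 9.46 to 10.32 for Med22RNAi, 8.53 to 9.27 for aly and 9.24 to 9.43 for sa, against 7.93 to 9.30 in wild type, with no call. Fat body markers (3 of 3 measured, Yp1 under 3 on every array) summed to 6.75 to 6.89 for Med22RNAi, 7.22 to 8.42 for aly and 6.77 to 8.36 for sa, against 8.59 to 10.48 for wild type. The part of these shifts in the results below was not tested.

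Of the 10 probe sets, those called lower belonged to the ligase genes and gudu, and those called higher to the caspase arm. In Med22RNAi, 3 of 10 fell (Cul3 1632211_at, klhl10, Roc1b), against 9.02% of all probe sets called lower, and 1 rose (Dcp-1), against 11.3% called higher. In aly, 4 of 10 fell (the same 3 and gudu), against 10.3% of all probe sets, and 3 rose (Dronc and both Dark probe sets), against 14.3%. In sa, 3 of 10 fell (Cul3 1632211_at, klhl10 and Roc1b), against 7.69%, and 2 rose (Dronc and Dcp-1), against 9.52%. The median log2 difference of the 10 from wild type was -1.05 in Med22RNAi, -0.67 in aly and -0.40 in sa, beside medians over all probe sets of 0.00 in each, with the many probe sets at the low end of the scale included. Over probe sets at a level of 6 or more in wild type the medians were 0.27 in Med22RNAi, 0.55 in aly and 0.51 in sa. The shares of all probe sets called also include the probe sets at the low end. In a fit of the 10405 probe sets averaging 4 or more in a genotype, the shares were larger. There, 1706 were called lower and 2132 higher in Med22RNAi, 1991 and 2696 in aly, and 1465 and 1788 in sa. With 10 probe sets, the numbers called higher lay near or under these shares and are not a result about the caspase arm. The 3 comparisons share their wild type arrays.

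**Figure D1:**
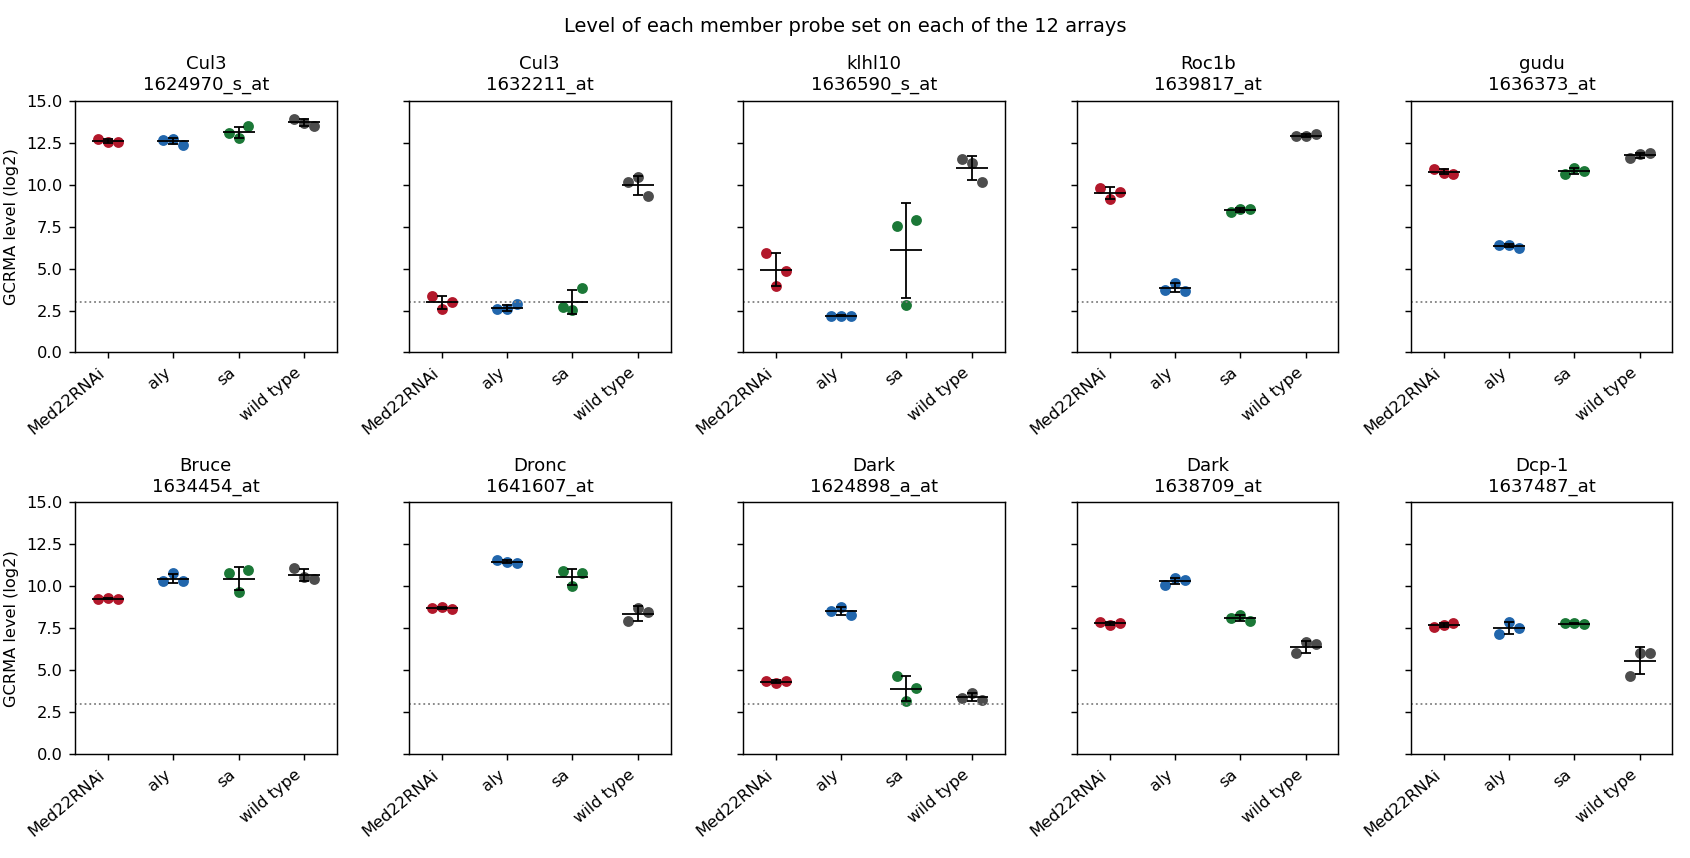
Log2 GCRMA level (vertical axis) of each of the 10 member probe sets on every array, by genotype; dots are arrays, the bar and whiskers are mean and SD (n = 3), and the dotted line marks a level of 3. Cul3 1632211_at, klhl10 and Roc1b lie far below wild type in all 3 arrested genotypes, gudu does so in aly, and the Dark and Dronc panels are highest in aly.

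Cul3 encodes the scaffold of the ligase, and its 2 probe sets behaved differently. Probe set 1632211_at read 3.35, 2.61 and 3.01 in Med22RNAi, 2.57, 2.57 and 2.87 in aly and 2.72, 2.53 and 3.85 in sa, against 10.13, 10.43 and 9.32 in wild type. All 9 arrays of the arrested genotypes thus lay under a level of 4, near the bottom of the scale, and none overlapped the wild type arrays. It fell by 6.97 ± 0.40 (SE, limma adjusted p = 1.317e-06) in Med22RNAi and by 6.93 (adjusted p = 1.414e-06) in sa. In aly, where every array was under 3, it was at least 125-fold lower than in wild type (adjusted p = 3.941e-07).

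The other Cul3 probe set, 1624970_s_at, read 12.75, 12.55 and 12.52 in Med22RNAi, 12.68, 12.70 and 12.39 in aly and 13.09, 12.80 and 13.48 in sa, against 13.92, 13.69 and 13.52 in wild type. The signal stayed high in every genotype, although no array of an arrested genotype reached the lowest wild type array. Its differences from wild type were -1.11 ± 0.18 in Med22RNAi (SE, limma adjusted p = 0.0006774), -1.12 in aly (adjusted p = 0.000558) and -0.59 in sa (adjusted p = 0.0252), all short of 4-fold. The difference from wild type at 1632211_at minus that at 1624970_s_at was -5.87 for Med22RNAi and -6.34 for sa (exact two-sided permutation p = 0.1 each, the smallest that 3 against 3 arrays allows). No such value is given for aly, whose arrays were all under 3 at 1632211_at, and the Med22RNAi and sa values also rest on levels near the bottom of the scale.

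RefSeq lists 4 transcripts and 4 proteins for Cul3, and a form with its own first part is known from testis. In Affymetrix naming, a suffix of _s_at marks a probe set whose probes can match several transcripts. Which Cul3 transcripts each probe set matches, and whether any probes also match transcripts of other genes, was not analysed here, since the probe sequences were not used. The same holds for the klhl10 probe set, 1636590_s_at, which has the same suffix.

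Klhl10 is the adaptor that brings substrates to the ligase. Its probe set read 5.94, 3.98 and 4.83 in Med22RNAi, 2.20, 2.18 and 2.20 in aly and 7.56, 2.81 and 7.89 in sa, against 11.52, 11.31 and 10.18 in wild type. Every arrested array lay below every wild type array, and the 3 aly arrays were close to the lowest value on the array (2.11). The probe set fell by 6.09 ± 1.23 in Med22RNAi (SE, limma adjusted p = 0.002696) and was at least 257-fold lower in aly (adjusted p = 0.0002348). In sa it fell by 4.92 (adjusted p = 0.009759), with replicate 2 at 2.81 and replicates 1 and 3 at 7.56 and 7.89. Without sa replicate 2 the fall in sa was 3.28, and in a fit of sa and wild type alone the adjusted p was 0.08825.

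Roc1b, the RING subunit that recruits the ubiquitin-conjugating enzyme, read 9.81, 9.12 and 9.54 in Med22RNAi, 3.74, 4.16 and 3.68 in aly and 8.38, 8.55 and 8.57 in sa, against 12.87, 12.89 and 13.03 in wild type. The 4 genotypes did not overlap, and wild type was highest and aly lowest. Roc1b fell by 3.44 ± 0.18 in Med22RNAi (SE, limma adjusted p = 8.056e-07), a 10.9-fold reduction. It fell by 9.07 in aly (adjusted p = 1.323e-09), which is 538-fold, and by 4.43 in sa (adjusted p = 2.853e-07), which is 21.6-fold. Relative to wild type, aly thus had the deepest loss of Roc1b, and Med22RNAi and sa kept an intermediate level.

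The Armadillo repeat gene gudu read 10.96, 10.71 and 10.66 in Med22RNAi, 6.41, 6.43 and 6.25 in aly and 10.66, 10.98 and 10.79 in sa, against 11.59, 11.82 and 11.88 in wild type. Med22RNAi and sa arrays were interleaved, slightly under wild type, while the aly arrays stood far below. In aly gudu fell by 5.40 ± 0.12 (SE, limma adjusted p = 1.926e-09), or 42.3-fold. In Med22RNAi the difference was -0.99 (adjusted p = 9.202e-05) and in sa -0.95 (adjusted p = 0.0001226), each close to 2-fold and not called.

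Bruce, the large caspase inhibitor on which the ligase acts, was not called against wild type in any genotype. It read 9.25, 9.33 and 9.25 in Med22RNAi, 10.31, 10.78 and 10.30 in aly and 10.77, 9.65 and 10.95 in sa, against 11.08, 10.54 and 10.42 in wild type. Only the Med22RNAi arrays were separate from wild type, with a difference of -1.40 ± 0.33 (SE, limma adjusted p = 0.006655), or 2.64-fold. The differences were -0.22 in aly (95% interval -0.98 to 0.54, adjusted p = 0.7182) and -0.22 in sa (95% interval -0.98 to 0.54, adjusted p = 0.8022). With array medians set equal, the aly difference was 0.43.

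In the caspase arm, Dark encodes the apoptosome adaptor, the fly counterpart of mammalian Apaf-1. Probe set 1638709_at read 7.85, 7.71 and 7.83 in Med22RNAi, 10.10, 10.49 and 10.38 in aly and 8.12, 8.28 and 7.95 in sa, against 6.01, 6.66 and 6.54 in wild type. Every arrested array was above every wild type array, and aly stood above the other arrests. Probe set 1624898_a_at read 4.38, 4.24 and 4.37 in Med22RNAi, 8.51, 8.77 and 8.32 in aly and 4.68, 3.15 and 3.92 in sa, against 3.35, 3.68 and 3.22 in wild type. At this probe set, only the aly arrays stood well clear of the low end of the scale.

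Both Dark probe sets rose in aly, by 3.92 ± 0.17 for 1638709_at (SE, limma adjusted p = 1.01e-07) and by 5.12 ± 0.33 for 1624898_a_at (adjusted p = 1.212e-06). In Med22RNAi the differences were 1.40 (adjusted p = 0.0001301) and 0.91 (adjusted p = 0.05257) for the 2 probe sets in that order, and in sa they were 1.71 (adjusted p = 3.724e-05) and 0.50 (adjusted p = 0.3285). None of these 4 reached 4-fold. The difference between the 2 probe sets in their change from wild type, 1638709_at minus 1624898_a_at, was 0.48 in Med22RNAi, -1.20 in aly and 1.22 in sa (exact two-sided permutation p = 0.1 each, the smallest possible).

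Dronc, the initiator caspase that the apoptosome activates, read 8.73, 8.75 and 8.67 in Med22RNAi, 11.58, 11.45 and 11.39 in aly and 10.90, 9.997 and 10.80 in sa, against 7.92, 8.74 and 8.49 in wild type. The aly and sa arrays were all above wild type, and the Med22RNAi arrays overlapped it. Dronc rose by 3.09 ± 0.26 in aly (SE, limma adjusted p = 7.511e-06), or 8.53-fold, and by 2.19 in sa (adjusted p = 0.0001092), or 4.55-fold. In Med22RNAi the difference was 0.34 (95% interval -0.26 to 0.94, adjusted p = 0.3852). The sa call sat near the 4-fold limit: the rise was 1.95 without wild type replicate 1, 1.94 with array medians set equal and 1.89 after a further quantile normalization.

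Dcp-1, an effector caspase, was above wild type by about the same amount in each arrest. It read 7.60, 7.71 and 7.83 in Med22RNAi, 7.16, 7.87 and 7.53 in aly and 7.82, 7.80 and 7.74 in sa, against 4.68, 6.01 and 6.05 in wild type. All arrested arrays were above all wild type arrays, and wild type replicate 1 was lowest. Dcp-1 rose by 2.13 ± 0.34 in Med22RNAi (SE, limma adjusted p = 0.0006856) and by 2.21 in sa (adjusted p = 0.0005953). The difference in aly, 1.94 (adjusted p = 0.001152), was just under 4-fold. With array medians set equal the differences were 1.67 in Med22RNAi, 2.58 in aly and 1.96 in sa, and only the aly one was called. The aly difference was also called without aly replicate 1 (2.12), wild type replicate 2 (2.15) or wild type replicate 3 (2.18). The Med22RNAi and sa calls rest on wild type replicate 1: without it the differences were 1.68 in Med22RNAi and 1.76 in sa, neither called. That array also had the highest summed accessory gland marker signal (4 of 4 measured), log2 16.004 against 12.73 and 13.31 on wild type replicates 2 and 3, with 12.54 to 14.69 for Med22RNAi, 11.54 to 12.35 for aly and 12.48 to 13.83 for sa.

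**Figure D2:**
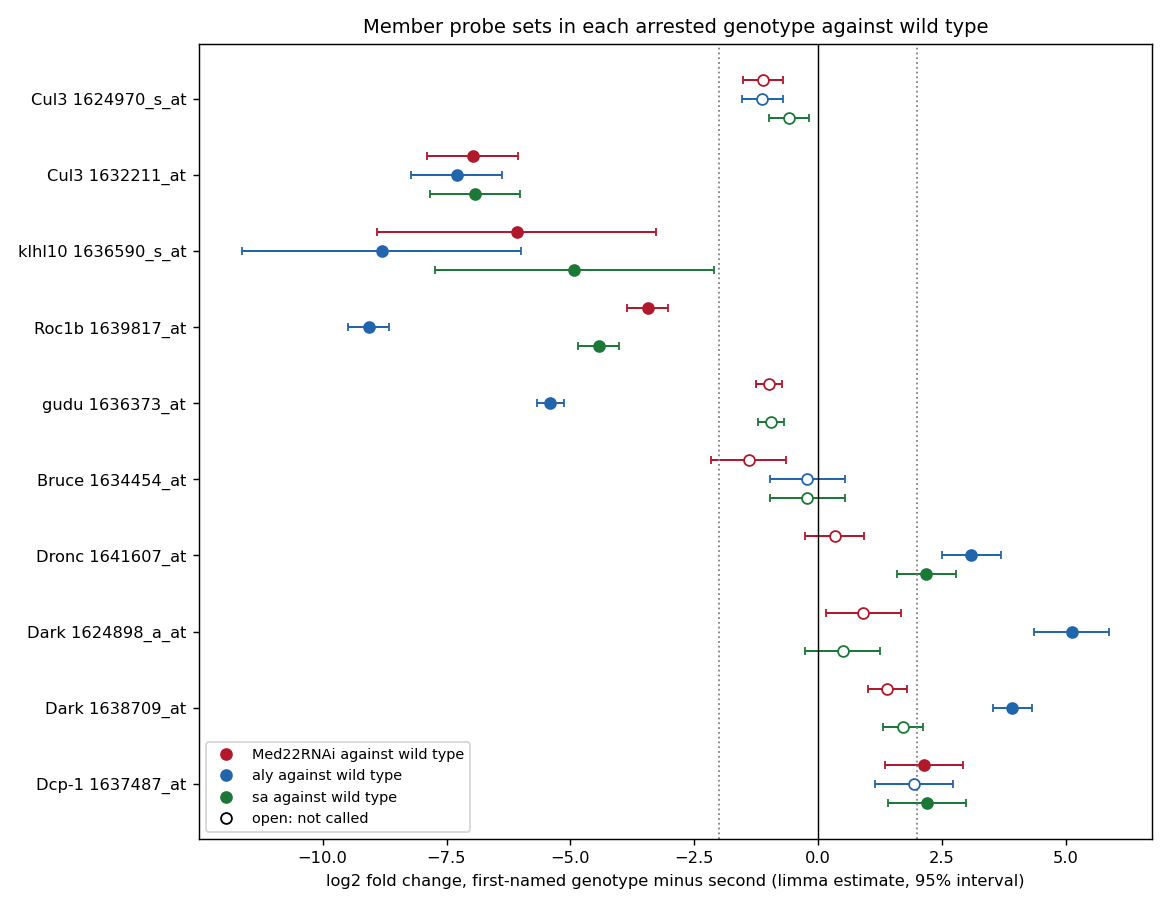
Log2 fold change of each member probe set against wild type (horizontal axis) in Med22RNAi, aly and sa; points are limma estimates with 95% intervals, filled where called, and dotted lines mark 4-fold. Roc1b lies at -3.44 in Med22RNAi, -9.07 for aly and -4.43 for sa, while Cul3 1632211_at is near -7 in all of them; the aly points of Cul3 1632211_at and klhl10 rest on arrays all under a level of 3.

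The arrested genotypes were next set directly against each other, which tests whether the level of a probe set differs between them. Such a difference cannot by itself give the degree to which a gene depends on Med22, aly or sa. The strength of the knockdown, for example, was not analysed here. The differences themselves do not use the wild type arrays. Their standard errors, intervals and p-values do, because every array was in the fit. Between Med22RNAi and aly, 5 of 10 probe sets were called, against 16.7% of all probe sets. Roc1b was higher in Med22RNAi by 5.63 (SE 0.18, 49.5-fold, limma adjusted p = 3.352e-08) and gudu was higher by 4.42 (SE 0.12, 21.3-fold, adjusted p = 1.33e-08). Dronc was lower in Med22RNAi than in aly, at -2.76 (adjusted p = 2.872e-05), as were Dark 1624898_a_at, at -4.20 (adjusted p = 8.564e-06), and Dark 1638709_at, at -2.53 (adjusted p = 3.501e-06). So the ligase RING subunit and gudu were kept more in Med22RNAi, and the apoptosome genes were higher in aly. With every aly array under 3, klhl10 was at least 3.78-fold higher in Med22RNAi, not called (limma adjusted p = 0.1215). It was called in a fit of the 2 genotypes alone, among probe sets at 4 or more in a genotype, and without sa replicate 2. Bruce, at -1.19 (adjusted p = 0.0181), was called only with array medians set equal, at -2.29, apart from a 2-fold limit. Setting array medians equal would move every Med22RNAi minus aly difference by -1.10, and all 5 calls kept their direction under it.

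Between Med22RNAi and sa, 0 of 10 probe sets were called, against 8.84% of all probe sets. An adjusted p under 0.05 in limma, with less than a 4-fold change, was found for 3 of them: Dronc at -1.85 (95% interval -2.45 to -1.25, adjusted p = 0.0006042), Bruce at -1.18 (-1.94 to -0.42, adjusted p = 0.0232) and Roc1b at 0.99 (0.58 to 1.40, adjusted p = 0.002494). Each of these 3 separated the 3 Med22RNAi arrays from the 3 sa arrays. Cul3 1632211_at differed by -0.05 (95% interval -0.96 to 0.87), gudu by -0.03 (-0.30 to 0.23) and Dcp-1 by -0.07 (-0.86 to 0.71). At Cul3 1632211_at both genotypes lay near the bottom of the scale, averaging 2.99 and 3.04, so that value cannot show an equal loss. For klhl10 the interval was wide, -3.98 to 1.64 around -1.17 (adjusted p = 0.6907). Without sa replicate 2, klhl10 was 2.81 lower in Med22RNAi than in sa (adjusted p = 0.00725) and Dronc 2.13 lower (adjusted p = 0.0001581), and both were then called.

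Between aly and sa, 5 of 10 probe sets were called, against 10.3% of all probe sets. Roc1b was lower in aly than in sa at -4.64 (SE 0.18, limma adjusted p = 1.309e-07), and gudu at -4.45 (SE 0.12, adjusted p = 1.471e-08). With every aly array under 3, klhl10 was at least 8.50-fold lower in aly than in sa (adjusted p = 0.04125). Dark was higher in aly, at 4.62 for 1624898_a_at (adjusted p = 7.009e-06) and 2.21 for 1638709_at (adjusted p = 1.273e-05). The klhl10 call was lost on leaving out any 1 of 11 of the 12 arrays, at an adjusted p of 0.05332 to 0.1436, and held without sa replicate 2. Dronc was 0.91 higher in aly (95% interval 0.31 to 1.51, adjusted p = 0.0281), under 4-fold. Cul3 1632211_at differed by -0.37 (95% interval -1.28 to 0.54), with aly wholly under a level of 3.

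**Figure D3:**
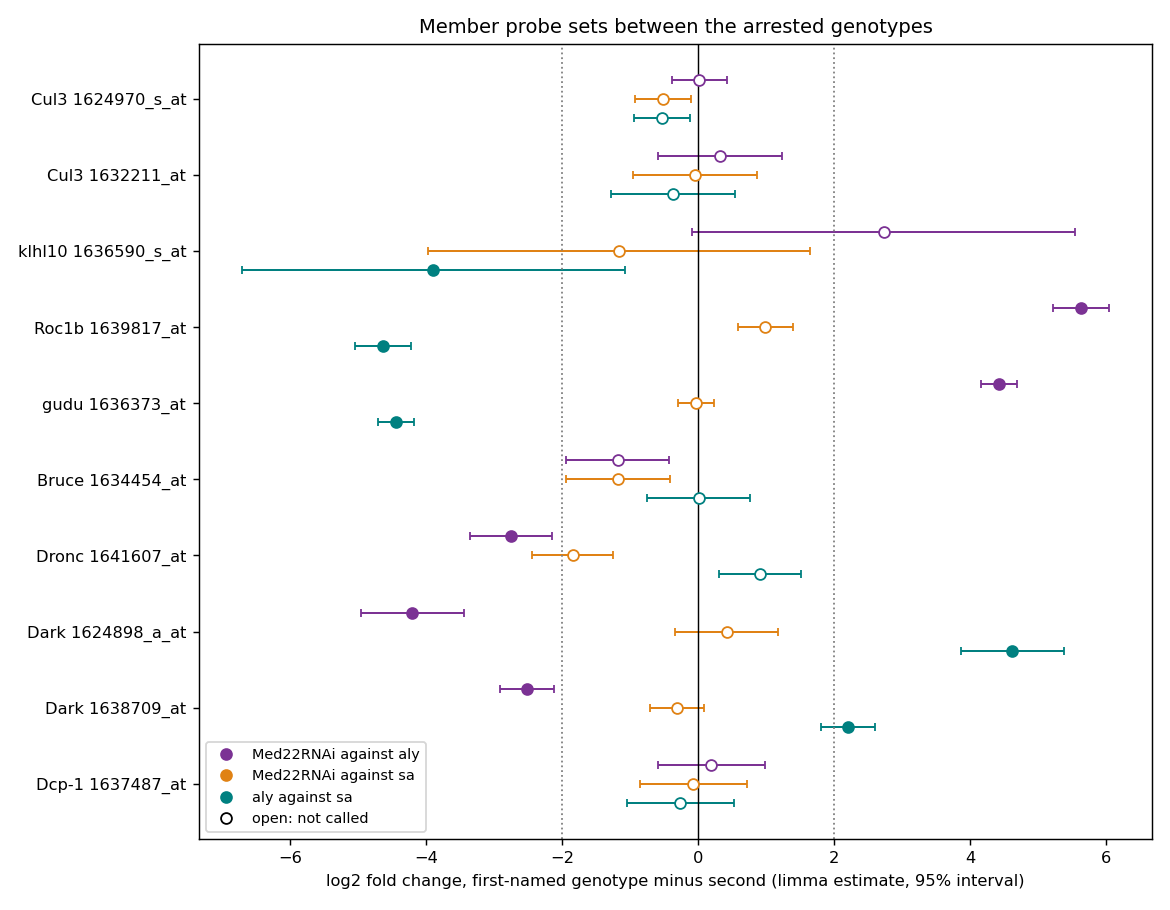
Log2 difference (horizontal axis) of each member probe set between 2 arrested genotypes, the first named minus the second; points are limma estimates with 95% intervals, filled where called, and dotted lines mark 4-fold. None is called between Med22RNAi and sa, while Roc1b, gudu and both Dark probe sets are called in both comparisons that include aly; the aly values of klhl10 and Cul3 1632211_at rest on arrays all under a level of 3.

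The order of the genotypes by level differed between the members. For Roc1b it was wild type, Med22RNAi, sa and aly from high to low with no neighbours overlapping. For gudu it was wild type, then sa and Med22RNAi, which did not differ beyond their spread, then aly. For Cul3 1632211_at all arrested genotypes lay together under wild type. For klhl10 they also lay under wild type, with aly lowest and the Med22RNAi and sa arrays overlapping. For the Dark probe sets aly was on top, with Med22RNAi and sa less than 1 log2 unit apart. For Dronc the order was aly, sa and then Med22RNAi, which overlapped wild type. For Dcp-1 the arrested genotypes overlapped each other above wild type, and for Bruce the Med22RNAi arrays were lowest while aly, sa and wild type overlapped.

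The probe sets whose pattern over the 12 arrays was nearest to a ligase member were then found, as the smallest root mean square difference of log2 levels after centring each probe set on its own mean. Roc1b was matched most closely by sunz (0.21), CG8236 (0.23) and CG14402 (0.25). Those 3 differed from wild type by -3.60 to -3.41 in Med22RNAi and -9.38 to -8.71 in aly. For Cul3 1632211_at the nearest were CG31797 (0.40), CG9449 (0.45) and CG7653 (0.50), and for 1624970_s_at they were sip2 (0.19), Acyp2 (0.20) and CG7453 (0.22). The nearest to gudu were CG3698 (0.28), CG10252 (0.32) and CG5217 (0.32). Klhl10 had looser neighbours, CG13978 (0.65), CG32651 (0.88) and CG33017 (0.91).

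Soti, which restrains the ligase as a pseudosubstrate, Nutcracker (ntc), an F-box protein needed for caspase activation in spermatids, its partner PI31, a proteasome regulator, and the deubiquitinating enzyme Duba are known regulators of the same pathway and were all measured. Of these 4, 0 were called in Med22RNAi and 0 in aly, and 1 fell in sa, where 7.69% of all probe sets were called lower, so with 4 genes these counts are not a result about the list. Their log2 differences had medians of -0.89 in Med22RNAi, -0.90 in aly and -1.10 in sa. The limma adjusted p of all 4 was nevertheless under 0.05 in every arrest, with the highest at 0.03397 for Duba in aly, whose difference of -0.55 is smaller than the 0.64 by which equal array medians would raise every aly difference from wild type. The gene that fell was ntc, which read 9.80, 9.59 and 10.06 in sa against 12.73, 12.72 and 12.56 in wild type, a fall of 2.85 ± 0.15 (SE, limma adjusted p = 1.008e-06). Its differences were -1.53 in Med22RNAi and -1.56 in aly, and ntc was 1.32 higher in Med22RNAi than in sa (adjusted p = 0.0001953) and 1.29 higher in aly than in sa (adjusted p = 0.0001925), both under 4-fold.

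Most of the other cullin-RING ligase genes were not called, and those that were lay above wild type. Of 10 measured, 0 fell in any arrest, against 9.02% of all probe sets in Med22RNAi, 10.3% in aly and 7.69% in sa. Those that rose were 3 in Med22RNAi, against 11.3% of all probe sets, 4 in aly, against 14.3%, and 3 in sa, against 9.52%, with medians of 1.41 in Med22RNAi, 1.08 in aly and 1.34 in sa. This list and the other further lists hold 1 probe set per gene. Counted that way, larger shares of the 11982 probe sets were called. These were 1466 lower and 1753 higher in Med22RNAi, 1696 and 2340 in aly, and 1254 and 1560 in sa. Cul4, a cullin paralog, read 11.08, 11.16 and 10.88 in Med22RNAi, 10.66, 10.85 and 10.69 in aly and 10.56, 10.38 and 10.42 in sa, against 7.38, 7.84 and 7.69 in wild type. It rose in all 3, with differences of 3.40 for Med22RNAi, 3.10 for aly and 2.82 for sa (SE 0.12 each, highest limma adjusted p = 3.942e-07). Roc1a, the general paralog of Roc1b, averaged 6.84 in Med22RNAi, 5.84 in aly and 5.81 in sa, against 3.72 in wild type, and rose in all 3, by 3.13 in Med22RNAi, by 2.12 in aly and by 2.096 in sa. The sa call of Roc1a was lost without sa replicate 2 (1.78), with array medians set equal (1.86), after a further quantile normalization (1.73) and with low values raised to a floor of 4 (1.81). The aly call was also lost with that floor (1.84).

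CSN5, the COP9 subunit that removes Nedd8 from cullins, rose by 3.31 in aly and 2.83 in sa, and its difference in Med22RNAi was 1.9985 (limma adjusted p = 3.939e-06), just below the limit. SkpA, which links F-box proteins to Cul1, rose by 2.36 in Med22RNAi (adjusted p = 6.405e-08), with differences of 1.27 in aly and 1.53 in sa. Among the remaining cullins, Cul5 rose by 2.04 in aly and differed by 0.89 in Med22RNAi and 1.61 in sa. Cul1 differed by 0.97 for Med22RNAi, 0.50 for aly and 0.26 for sa. Cul2 differed by 0.59 for Med22RNAi, -0.45 for aly and 0.68 for sa. Cand1, which binds cullins free of Nedd8, was lower in Med22RNAi at -0.80 (limma adjusted p = 0.01228), under 4-fold, with differences of 0.56 in aly and 0.43 in sa.

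Other genes named for roles in individualization showed no common direction. Of 19 measured of 23 listed, 2 fell and 4 rose in Med22RNAi, against 9.02% and 11.3% of all probe sets. In aly 3 fell and 2 rose, against 10.3% and 14.3%, and in sa 3 fell and 0 rose, against 7.69% and 9.52%. The list had medians of 0.55 in Med22RNAi, -0.02 in aly and 0.32 in sa. The gene mlt (mulet), which encodes a tubulin-binding cofactor-like protein, read 9.86, 8.66 and 9.50 in Med22RNAi, 5.40, 6.52 and 6.36 in aly and 8.84, 8.15 and 8.97 in sa, against 13.04, 12.57 and 12.87 in wild type. It fell in all 3, with differences of -3.49 for Med22RNAi, -6.73 for aly and -4.18 for sa (highest limma adjusted p = 7.273e-05), with the deepest loss in aly, as for Roc1b. Ance, an angiotensin-converting enzyme, also fell in all 3, with differences of -2.55 for Med22RNAi, -2.85 for aly and -2.31 for sa.

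The genes heph and nes of that list rose in Med22RNAi without a call in aly or sa. The RNA-binding protein gene heph read 11.03, 11.48 and 11.31 in Med22RNAi, against 6.76, 6.65 and 6.27 in wild type, a rise of 4.71 ± 0.40 (SE, limma adjusted p = 1.197e-05). Its differences were 0.33 in aly and 0.47 in sa, and it was called higher in Med22RNAi than in aly by 4.38 (adjusted p = 2.269e-05) and than in sa by 4.24 (adjusted p = 5.649e-05). The lysophospholipid acyltransferase gene nes rose by 2.91 in Med22RNAi, with differences of 0.72 in aly and 1.07 in sa. It was 2.19 higher in Med22RNAi than in aly (limma adjusted p = 1.549e-05), called, and 1.83 higher than in sa (adjusted p = 9.603e-05), under 4-fold. The muscle marker Mlc2, the one of 3 muscle markers measured, was also higher in Med22RNAi, at 9.53 to 10.10, against 3.94 to 6.92 in wild type. The cyst cell marker zfh1, given above, was high only on the Med22RNAi arrays as well. Hemocyte marker sums were highest there, but the hemocyte marker Hml was highest in aly. The part of these markers in the heph and nes results was not tested.

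Of the other caspase and apoptosis genes, 10 of 15 listed were measured. In Med22RNAi 3 fell and 0 rose, against 9.02% and 11.3% of all probe sets, in aly 0 fell and 1 rose, against 10.3% and 14.3%, and in sa 1 fell and 0 rose, against 7.69% and 9.52%, with medians of -0.13 in Med22RNAi, 0.00 in aly and 0.12 in sa. HtrA2, a mitochondrial protease, read 9.64, 9.28 and 9.41 in Med22RNAi, against 11.95, 12.21 and 12.03 in wild type, a fall of 2.62 ± 0.13 (SE, limma adjusted p = 6.638e-07), with differences of -0.11 in aly and -0.62 in sa. Debcl, a Bcl-2 family gene, fell by 2.46 in Med22RNAi (adjusted p = 2.437e-06) and differed by -0.28 in aly and 0.83 in sa. Set directly against aly, Med22RNAi was lower by 2.51 for HtrA2 (adjusted p = 6.376e-07) and 2.18 for Debcl (adjusted p = 5.19e-06), both called. Against sa, the difference was -3.29 for Debcl (limma adjusted p = 1.381e-06), called, and -1.9999 for HtrA2 (adjusted p = 7.114e-06), just short of 4-fold.

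Fadd, an adaptor of the caspase Dredd, rose by 2.70 in aly (limma adjusted p = 1.69e-06), as Dronc and Dark did, and differed by -0.25 in Med22RNAi and 0.86 in sa. The caspase gene Damm averaged 2.20 in Med22RNAi, 2.46 in aly and 2.36 in sa, all near the lowest value, against 4.41 ± 1.36 in wild type (SD, n = 3). Its calls in Med22RNAi and sa were lost on leaving out wild type replicate 2 or 3 and, in sa, also without sa replicate 3. Both were also lost with low values raised to a floor of 4 and in a fit of only the 2 genotypes compared. The cell death genes grim and skl averaged 2.11 to 2.14 in every genotype.

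**Figure D4:**
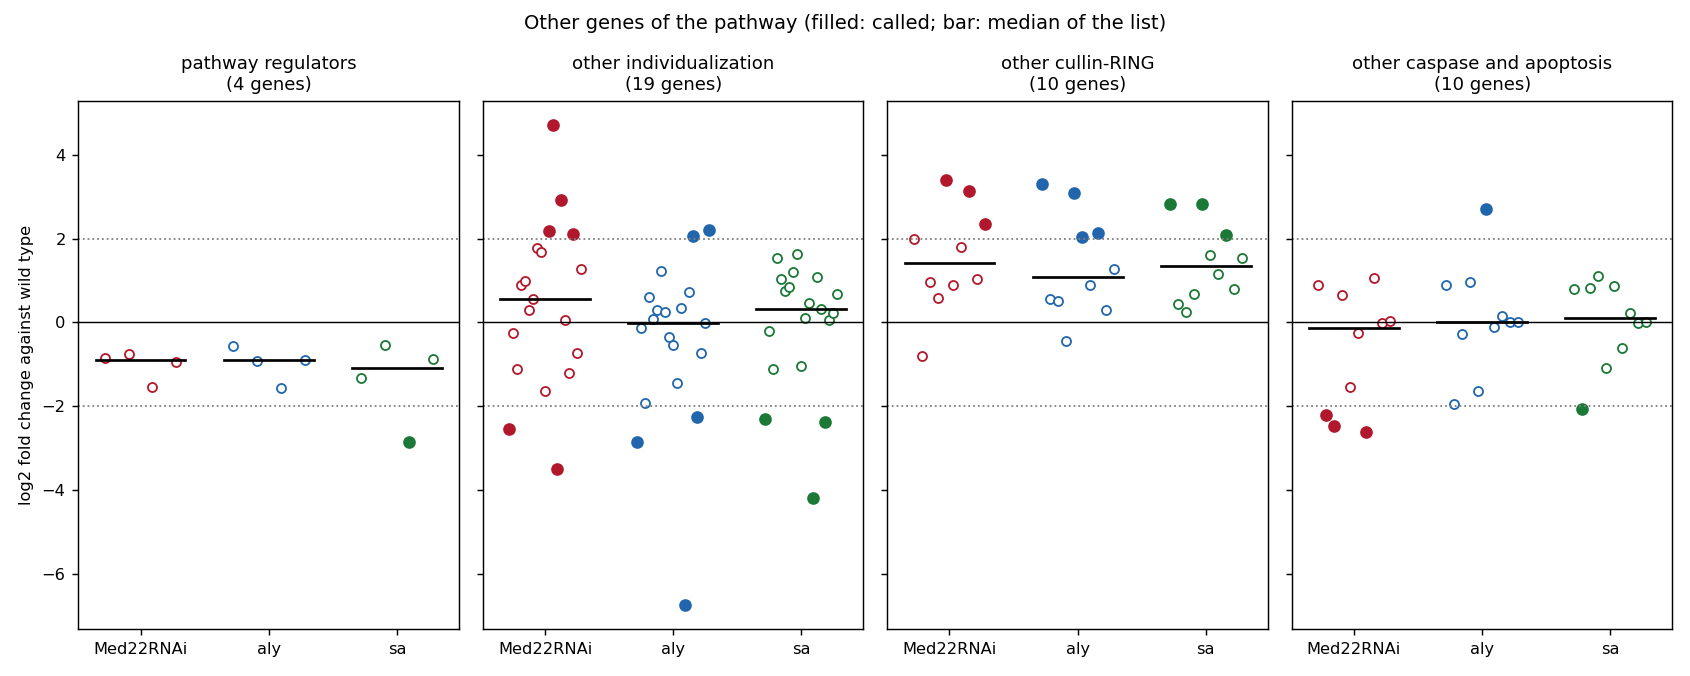
Log2 fold change against wild type (vertical axis) of each measured gene of 4 further lists, by arrested genotype; each dot is a gene, filled where called, black bars are list medians and dotted lines mark 4-fold. Only the other cullin-RING genes have a median above 1 in all 3 genotypes, at 1.41 in Med22RNAi, 1.08 in aly and 1.34 in sa.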

How the data were processed

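RNA of 12 testis samples had been hybridised to Affymetrix Drosophila 2.0 arrays. The deposited values are log2 signals that the authors made with GCRMA (version not given in the sources used here), which corrects background, normalizes the arrays and summarises each probe set. No source says if GCRMA was run on all 12 arrays at once. Such arrays have no read depth, and 3 arrays per genotype limit the precision. From 18952 rows, 183 control probe sets were removed, leaving 18769 with no filter on low signal. Symbols came from the platform annotation: 13647 probe sets had 1 symbol, 402 several and 4720 none.

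In limma 3.58.1 (R 4.3.3), lmFit and eBayes were run on the 12 arrays together with 1 mean for each genotype. Within a comparison, the Benjamini-Hochberg adjustment covered every probe set. The fit was tested on simulated data. A gene of several probe sets was counted in a list by the one with the highest mean. From each list, up to 4 called genes with the largest absolute change against wild type were named, with Cul1, Cul2, Cul4, Cul5 and Roc1a as paralogs, while grim and skl were named after their values were seen. Members and lists were chosen with earlier results of these data known. Alternatives covered the arrays fitted, a replicate block, normalization, centring, low values, thresholds, the variance model and leaving out each array. Python 3.11.15, pandas 2.3.3 and matplotlib 3.10.9 prepared tables and figures.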

Additional observations from a re-analysis of the deposited data

Results flagged for a closer look

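These 10 differences between arrested genotypes drew attention because the direct comparison of the genotypes was itself called, so their changes against wild type were unequal. Between Med22RNAi and aly these were Roc1b at 5.63, gudu at 4.42, Dronc at -2.76, Dark 1624898_a_at at -4.20 and Dark 1638709_at at -2.53, on the log2 scale as Med22RNAi minus aly. Between aly and sa they were Roc1b at -4.64, gudu at -4.45, Dark 1624898_a_at at 4.62 and Dark 1638709_at at 2.21, as aly minus sa, and klhl10, which was at least 8.50-fold lower in aly. Its fitted difference of -3.89 is not a measured size, since all aly arrays lay under a level of 3. All involve aly, and the klhl10 one rests on 3 sa arrays of which replicate 2 lay more than 4 log2 units under the others.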

How the results depend on the processing

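Calls of Cul3 1632211_at and Roc1b against wild type, and of Roc1b, gudu and Dark between arrests, held under every alternative that kept those probe sets. Keeping 1 probe set per gene leaves out Cul3 1632211_at and Dark 1624898_a_at, and Cul3 then stands for 1624970_s_at, which is not called. The replicate numbers do not pair the arrays (same-numbered arrays' deviations correlated at -0.27 to 0.33 over 18 pairs, 4 of 12 arrays best with their own number), and the replicate block changed no call or count of the 10 probe sets: 3 and 1 lower and higher in Med22RNAi, 4 and 3 in aly, 3 and 2 in sa.

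Members called higher numbered 0 in Med22RNAi and 0 in sa (Dcp-1, and in sa also Dronc, lost) after a further quantile normalization, with medians set equal, and without wild type replicate 1. With medians set equal, Dcp-1 was called higher in aly, and 1 probe set (Dronc) was called between Med22RNAi and sa. At a 2-fold limit 5 were lower and 2 higher in Med22RNAi, and 2 were called between Med22RNAi and sa. Leaving out 1 array gave 0 to 1 higher in Med22RNAi, 3 to 4 higher in aly, 0 to 2 higher in sa and 0 to 2 between Med22RNAi and sa.

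Signs turned only for values not called. After quantile normalization these were Dronc in Med22RNAi at -0.032, Cul3 1632211_at at -0.14 and Dcp-1 at -0.28 between Med22RNAi and aly, gudu at 0.10 between Med22RNAi and sa, and, between aly and sa, Cul3 1632211_at at 0.018, Bruce at -0.055 and Dcp-1 at 0.10. With medians set equal, which shifts the median of all probe sets against wild type by -0.46 for Med22RNAi, 0.64 for aly and -0.24 for sa, they were Dronc in Med22RNAi at -0.12, Bruce in aly at 0.43, Cul3 at -1.09 (1624970_s_at) and -0.78 (1632211_at) and Dcp-1 at -0.91 between Med22RNAi and aly, and Cul3 at 0.35 (1624970_s_at) and 0.51 (1632211_at) and Dcp-1 at 0.62 between aly and sa. Leaving out 1 array gave -0.47 to 0.18 for Bruce in sa, -0.084 to 0.070 for Cul3 1624970_s_at between Med22RNAi and aly, -0.30 to 0.36 for Cul3 1632211_at and -0.13 to 0.052 for gudu between Med22RNAi and sa, and -0.62 to 0.039 for Cul3 1632211_at and -0.40 to 0.25 for Bruce between aly and sa. The cause was not tested.

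Across all probe sets, a 2-fold limit called 2582 lower and 4302 higher in Med22RNAi, against 1693 and 2126 at 4-fold, 4683 higher in aly, against 2693, and 2209 lower and 4138 higher in sa, against 1443 and 1786. With medians set equal the split was 2135 lower and 1395 higher in Med22RNAi, 1696 and 4030 in aly, against 1935 and 2693 as deposited, and 1637 and 1331 in sa, against 1443 and 1786. Between arrests, lower and higher calls numbered 1223 and 1908 (Med22RNAi against aly), 802 and 857 (Med22RNAi against sa) and 1374 and 556 (aly against sa) as deposited. They numbered 2741 and 2953, 2079 and 2140, and 2013 and 1940 at a 2-fold limit, 3094 and 1260, 1010 and 706, and 1068 and 1819 with medians set equal, and 1608 and 1594, 895 and 865, and 1192 and 913 after quantile normalization. For the 4 further lists, added after seeing the data, quantile normalization left 2 of the 4 higher individualization calls in Med22RNAi and 0 of 2 in aly, and SkpA was no longer called in Med22RNAi (1.90) with medians set equal. Probe sets at the low end of the scale give only bounds.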
